A study of Homo sapiens with 2 samples.

Results

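Distal 2q37, the last stretch of the long arm of human chromosome 2, holds CXCR7 and ESPNL, both of which fell steeply in eSAS cells. Its genes were taken as every non-control probe whose deposited hg18 coordinates lie between chr2:230000000 and chr2:242951149, leaving out CXCR7 itself (1 probe) and the collagen gene COL6A3 (2 probes). This gave 257 of the 41000 probes and 183 of the 30433 gene or transcript names on the array, and 113 of the 183 names were measured well above background in both cell populations. The region was chosen by the low eSAS over SAS ratios of CXCR7 and ESPNL, so the values of that pair are a description without a test, and the question asked is whether the genes around the fallen probes shifted together.

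SAS is a squamous cell carcinoma line from a human tongue tumour, and eSAS is the population left after 5 successive selections of large SAS spheroids with a filter device called Spheroid Catch. Both were kept in DMEM with fetal bovine serum, penicillin and streptomycin, and total RNA came from cells in log growth. Each population was measured once on a 1-colour Agilent whole human genome array, with 1 array per population, so no difference has a replicate check and no p-value is given. eSAS is 1 selected population, and a change in the makeup of the population and a change of RNA per cell cannot be told apart in bulk RNA.

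Distal 2q37 is a gene-dense end of a chromosome arm with no single theme. It carries the germ cell and placental alkaline phosphatases, the SP100 family of nuclear body proteins, the UGT1A cluster of glucuronidating enzymes, subunits of the proteasome and of the COP9 signalosome, the clock gene PER2 and the histone deacetylase gene HDAC4. CXCR7, now named ACKR3, is an atypical receptor that binds and removes the chemokine CXCL12. ESPNL encodes espin-like, a relative of the actin-bundling protein espin that is best known from the stereocilia of hair cells. INPP5D encodes SHIP1, an inositol lipid phosphatase best known from blood cells. ALPP and ALPG encode the placental and the germ cell alkaline phosphatase, close copies of each other that sit side by side and can be switched on in carcinomas.

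The sequences just before the starts of the member genes whose probes fell on both arrays are shown because they are the nearest regulatory sequence of those genes. Each is the 250 bases upstream of a RefSeq start on the plus strand of GRCh38.p14, a later build than the hg18 of the probes, and the scanner files gave no probe sequence to print. For ALPP (chr2:232378501-232378750) and ALPG (chr2:232406594-232406843), capitals mark the bases that differ between the aligned pair:
ALPP: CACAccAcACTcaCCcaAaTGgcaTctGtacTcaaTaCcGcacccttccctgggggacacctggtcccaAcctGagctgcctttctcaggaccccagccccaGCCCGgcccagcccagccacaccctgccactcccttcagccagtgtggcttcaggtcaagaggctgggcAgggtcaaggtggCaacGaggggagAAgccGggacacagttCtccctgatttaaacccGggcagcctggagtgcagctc
ALPG: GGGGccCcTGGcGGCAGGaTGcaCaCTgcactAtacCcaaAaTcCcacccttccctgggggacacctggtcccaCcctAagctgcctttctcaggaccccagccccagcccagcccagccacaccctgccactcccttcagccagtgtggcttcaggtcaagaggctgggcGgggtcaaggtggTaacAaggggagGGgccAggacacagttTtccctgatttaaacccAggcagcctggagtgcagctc
In this alignment 216 of the 250 bases, or 86.4%, were identical, as were 185 of the 200 bases of ALPP nearest the start. INPP5D (chr2:233060092-233060341) and both annotated starts of ESPNL (chr2:238100090-238100339 and chr2:238127140-238127389) follow, where capitals mark a GC box:
INPP5D: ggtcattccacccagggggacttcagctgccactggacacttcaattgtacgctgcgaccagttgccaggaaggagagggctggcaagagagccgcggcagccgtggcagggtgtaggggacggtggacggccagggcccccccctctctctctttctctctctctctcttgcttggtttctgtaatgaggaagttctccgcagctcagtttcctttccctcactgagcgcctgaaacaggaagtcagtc
ESPNL, first start: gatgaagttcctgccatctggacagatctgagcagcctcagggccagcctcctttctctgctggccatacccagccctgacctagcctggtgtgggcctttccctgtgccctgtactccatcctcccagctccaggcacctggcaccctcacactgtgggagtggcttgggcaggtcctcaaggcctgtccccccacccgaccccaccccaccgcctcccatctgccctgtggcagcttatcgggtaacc
ESPNL, second start: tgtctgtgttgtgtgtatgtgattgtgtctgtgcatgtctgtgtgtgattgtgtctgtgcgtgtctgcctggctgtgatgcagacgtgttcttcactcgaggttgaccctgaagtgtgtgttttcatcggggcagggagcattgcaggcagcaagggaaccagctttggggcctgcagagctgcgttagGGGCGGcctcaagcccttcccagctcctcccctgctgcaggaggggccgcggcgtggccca

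These promoters were compared with the rest by base composition and by 3 motifs, each searched on both strands: the TATA box as TATAAA, the GC box as GGGCGG and the E-box as CACGTG. The upstream sequences of ALPP, ALPG and INPP5D held 5, 2 and 9 CpG dinucleotides, and the first and second start of ESPNL held 3 and 9. All of these lay under the median of 18 over the 139 promoters of member genes and the median of 11 over all 35116 promoters. However, 43.2% of member promoters and 47.8% of all promoters also had 9 or fewer. In the same order the GC content was 62.8%, 63.2%, 59.2%, 64% and 59.2%. The median was 66.4% over member promoters and 58% over all promoters. The GC box was found in ALPG and at the second start of ESPNL, against 61.2% of member promoters and 42.6% of all promoters. Neither the TATA box nor the E-box was found in any of the 5 windows. The TATA box stood in 6.47% and the E-box in 12.2% of member promoters, against 3763 and 2228 of all 35116 promoters.

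Most measured probes of the region differed little between the populations. Signals are given in scanner units, and each log2 ratio is eSAS over SAS after each array was divided by the 75th percentile of its own probes. Of the 257 member probes, 168 were well above background on both arrays, 8 on the SAS array only, 1 on the eSAS array only and 80 on neither. Of the 168 probes, 163 (97.0%) differed by less than 2-fold, against 97.8% of such probes over the whole array. Among the 177 member probes measured on at least 1 array, 5 (2.82%) were at least 2-fold lower in eSAS, where 1.97% of all such probes were, and 2 (1.13%) were at least 2-fold higher, where 1.83% were. At 1.5-fold, 9 were lower and 3 higher (5.08% and 1.69%), against 6.12% and 4.43% of all probes. The members' count of fallen probes includes ESPNL, for which the region was chosen, so nothing is read from its excess over the whole array. Without background correction the shares were lower, 1.69% of member probes against 0.57% of all probes.

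**Figure D1:**
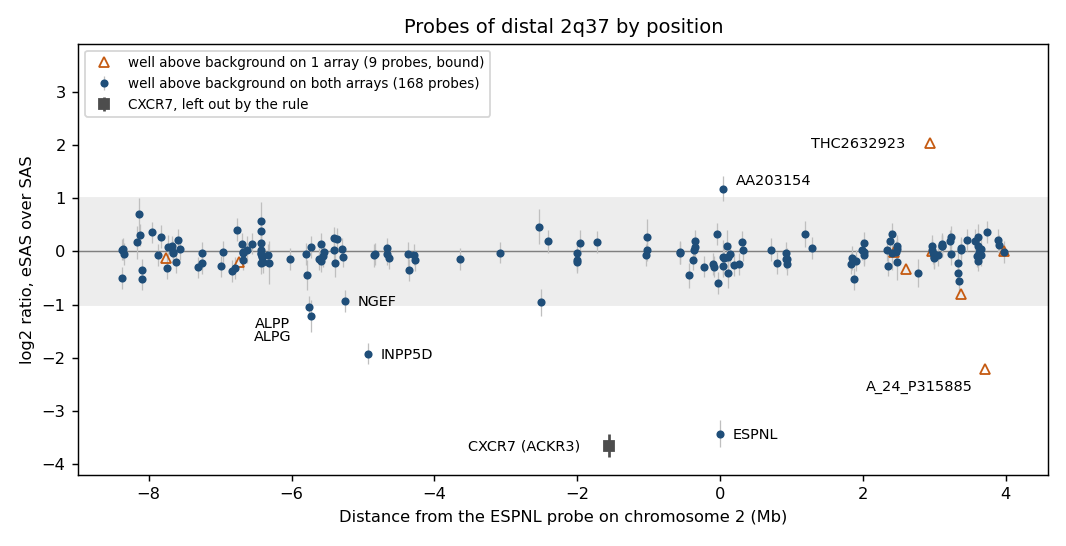
Log2 ratio of eSAS over SAS (vertical axis) of member probes against their distance in Mb from the ESPNL probe (horizontal axis). Filled circles are the 168 probes well above background on both arrays, bars are the technical error of 1 spot given by the scanner software, triangles are 9 probes seen on 1 array and drawn at their bound, the square is CXCR7 and the grey band is less than 2-fold. ESPNL and CXCR7 lie near -3.5 with neighbours close to 0, and INPP5D, ALPP, 1 ALPG probe and A_24_P315885 are the other probes below the band.

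ESPNL was the member that fell furthest. Its probe, at chr2:238706588-238706647, gave a signal of 425.9 in SAS and 38.0 in eSAS, well above background on both arrays. The log2 ratio was -3.43 with a technical error of 0.25, or 10.8-fold lower in eSAS. CXCR7, 1.55 Mb before it at chr2:237155522-237155581, gave 1358 in SAS and 104.2 in eSAS, a log2 ratio of -3.65 and 12.6-fold lower. Each gene had 1 probe on 1 spot, and whether the probe positions are exonic was not analysed here because the annotation in hand is of another build.

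The measured genes beside ESPNL did not fall steeply with it. On the near side SCLY, selenocysteine lyase, had a mean log2 ratio of -0.13, although its 2 probes gave -0.59 and 0.33. UBE2F, which conjugates NEDD8 to cullins, had -0.26, RAMP1, a partner of the calcitonin receptor-like receptor, -0.28, the transcript AA292106 0.20, and LRRFIP1, a nucleic acid binding protein, 0.05. On the far side the transcripts ENST00000326320 and ENST00000357303 had log2 ratios of -0.11 and -0.28, and ILKAP, a phosphatase partner of integrin-linked kinase, and the transcript BC059397 had -0.12 and 0.10. By their means these 9 names all lay within 1.5-fold, and the nearest on each side, ENST00000326320 and SCLY, were 34.2 and 37.6 kb from the ESPNL probe. KLHL30, another neighbour, was not well above background on either array.

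The remaining near neighbour moved the other way. The transcript AA203154, 46.1 kb beyond ESPNL at chr2:238752689-238752748, gave 39.9 in SAS and 87.1 in eSAS, a log2 ratio of 1.18 with a technical error of 0.24. This was 2.27-fold higher in eSAS, and it was 1 of only 2 member probes past 2-fold in that direction. Without background correction its log2 ratio was 0.68, so passing 2-fold depends on that correction. AA203154 lies 4.73 kb before ILKAP and 10.5 kb after ENST00000357303, both of which were within 1.5-fold.

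The names nearest to CXCR7 lay close to 0 as well, with the collagen gene COL6A3 left out by the rule. Before CXCR7 these were the unnamed probe A_24_P341386 (log2 ratio 0.17), the homeobox gene GBX2 (0.16), the transcript CR608907 (-0.17), AGAP1, a regulator of endosomal Arf GTPases (-0.12), and the transcript AK055821 (0.19). After it came the COP9 signalosome subunit COPS8 (-0.07), the probe A_32_P227648 (0.03), the transcript CV570707 (0.27), the prolactin-releasing hormone gene PRLH (-0.02) and RAB17, a GTPase of epithelial vesicle traffic (-0.03). The 10 log2 ratios ran from -0.17 to 0.27 with a median of 0.01. Between CXCR7 and ESPNL, 12 measured names had log2 ratios from -0.45 to 0.27 with a median of -0.05. By its mean over probes, none of those between the fallen pair was past 1.5-fold, although 1 probe of SCLY, at -0.59, just was. Further off but within 1 Mb of CXCR7, the unnamed probe A_32_P98574, at chr2:236199078-236199137, gave 68.2 in SAS and 33.9 in eSAS, a log2 ratio of -0.96 just short of 2-fold.

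**Figure D2:**
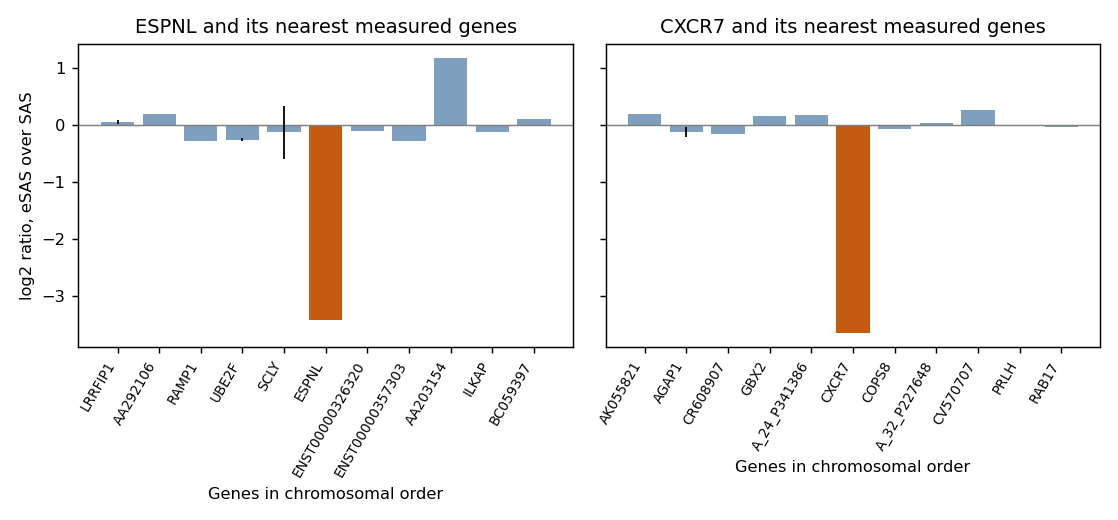
Log2 ratio of eSAS over SAS (vertical axis) of ESPNL (left) and CXCR7 (right) in orange with the 5 nearest measured names on each side other than COL6A3, which the rule leaves out, in chromosomal order. Bars start at 0 and black lines span the lowest and highest probe of names with several probes. Of the 20 neighbours AA203154, at 1.18, is the only name past 2-fold, and without background correction it is at 0.68.

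A second, smaller group of fallen probes lay at the proximal end of the region. ALPP, at chr2:232955442-232955501, gave 3719 in SAS and 1739 in eSAS, a log2 ratio of -1.04 with a technical error of 0.20, or 2.06-fold lower. A probe of ALPG, named ALPPL2 on the array and 26.9 kb further on at chr2:232982328-232982387, gave 64.3 and 26.7, a log2 ratio of -1.21 with an error of 0.30, or 2.32-fold lower. Without background correction its log2 ratio was -0.48, so passing 2-fold depends on that correction. The other ALPG probe gave 373.0 in SAS and 378.7 in eSAS, a log2 ratio of 0.08, so the probes of this gene disagreed by 1.29, the widest gap among the 37 measured names with several probes. ALPP and ALPG transcripts are near copies, and how much each probe reads of the other gene was not tested. ALPI, the intestinal form from the same cluster, was not well above background on either array. The nearest measured names outside the pair were DIS3L2, an exonuclease that degrades uridylated RNA, at -0.21 and LOC646960 at -0.14.

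A probe of INPP5D fell more. This probe, at chr2:233781156-233781215, gave 1721 in SAS and 437.7 in eSAS, a log2 ratio of -1.92 with a technical error of 0.20, or 3.79-fold lower. The other INPP5D probe, at chr2:233776486-233776545, gave 3.74 and 4.30 and was not well above background on either array, so the fall rests on 1 probe. NGEF, which encodes the guanine nucleotide exchange factor ephexin and is the nearest measured name before it at 329.4 kb, gave 1607 and 813.8, a log2 ratio of -0.93 that lay just short of 2-fold. ATG16L1, an autophagy protein 81.3 kb beyond INPP5D, had -0.06, so the lower values did not run on past INPP5D. Blood cells are the best known source of INPP5D, and of the leukocyte markers CD14 was well above background on both arrays, at 214.7 in SAS and 232.7 in eSAS, while PTPRC and CD3E were not on either.

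The last probes past 2-fold were seen in 1 population only and carry no gene name. A_24_P315885, at chr2:242409282-242409341, gave 73.1 in SAS and was not well above background in eSAS, which makes it at least 4.63-fold lower when the lowest signal well above background on the eSAS array stands in for it. It lies near the sialidase gene NEU4, both probes of which were not well above background on either array. Its nearest measured names, A_23_P251196 and the immune checkpoint receptor gene PDCD1, had log2 ratios of -0.07 and 0.36. THC2632923, at chr2:241642373-241642431, was not well above background in SAS and gave 51.0 in eSAS, at least 4.13-fold higher. The names beside it, MAB21L4 and the mitochondrial ribosome factor gene MTERF4, had log2 ratios of -0.40 and 0.03. The technical errors of the log2 ratios before the lower limit were large, 0.65 for A_24_P315885 and 1.45 for THC2632923. Without background correction their log2 ratios were -0.97 and 0.73, so these bounds depend on that correction.

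Over the 5 fallen member probes, the nearest measured names on each side made 10 flanks, with log2 ratios from -1.04 to 0.36 and a median of -0.14. Only 1 of the 10 was at least 2-fold lower, and that was ALPP counted as the neighbour of ALPG. Of the 10 flanks 9 lay below 0, where 50.3% of all measured names were. The 9 include ALPP and also ALPG, the flank of ALPP, whose mean takes in its own fallen probe. Nothing is therefore read from this count. On the array, the measured spots around each of the 7 probes past 2-fold had median log2 ratios between -0.08 and 0.21, and none lay in rows 450 to 510, an array area that was also left out as an alternative.

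**Figure D3:**
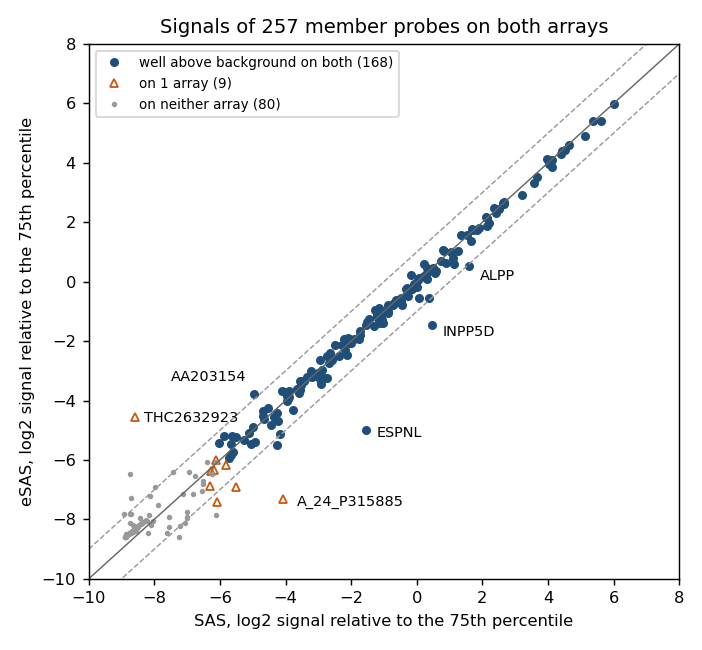
Signal of the 257 member probes in eSAS (vertical axis) against SAS (horizontal axis), both as log2 relative to the 75th percentile of the array. The solid line is equality and the dashed lines are 2-fold; 168 filled circles were well above background on both arrays, 9 triangles on 1 array and 80 grey points on neither, all at their measured signals. ESPNL and INPP5D stand furthest below the lines among the circles, and all other circles but ALPP, 1 ALPG probe and AA203154 lie between them.

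Taking the region as a whole, the 113 measured names had a median log2 ratio of -0.06, with 67 (59.3%) below 0. The other 1203 measured names of chromosome 2 had a median of 0.00, with 50.5% below 0, and all 19391 measured names had a median of 0.00, with 50.3% below 0. The stretch of the same length just proximal to the region, with 89 measured names, had a median of -0.04 and 58.4% below 0. The share below 0 was thus not particular to distal 2q37. The quartiles of the member values were -0.19 and 0.10, against -0.14 and 0.13 over all names. Within 1 Mb of ESPNL the median of 21 names was -0.12, with 15 below 0, and within 1 Mb of CXCR7 the median of 12 names was 0.01, with 6 below 0. With a 2 Mb window both were -0.07, over 32 and 29 names that largely overlap. In 13 successive 1 Mb bins the medians ran from -0.12 to 0.16. The lowest was that of the bin from 238 to 239 Mb, with 18 names, ESPNL among them.

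Neighbouring member genes were only weakly alike. Over 112 pairs of adjacent measured names, the Spearman correlation of the log2 ratios was 0.09 and 53.6% of pairs had the same sign. Over 19304 adjacent pairs on all chromosomes, 13 and X with their low medians included, these were 0.18 and 55.4%. These are descriptions across genes of the same 2 arrays, and genes are not independent replicates. Probes of a single gene set the scale for this: the first and last probes of 37 member names had a correlation of 0.25 and the same sign in 64.9%, against 0.56 and 70.0% for 5319 names on the whole array. The median gap between the lowest and highest probe of a member name was 0.21 on the log2 scale, and 3 names (ALPG, SCLY and FBXO36) had a gap above 0.5. The median absolute difference was 0.14 between the first and last probe of a member name and 0.21 between adjacent member names, against 0.11 and 0.20 on the whole array.

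**Figure D4:**
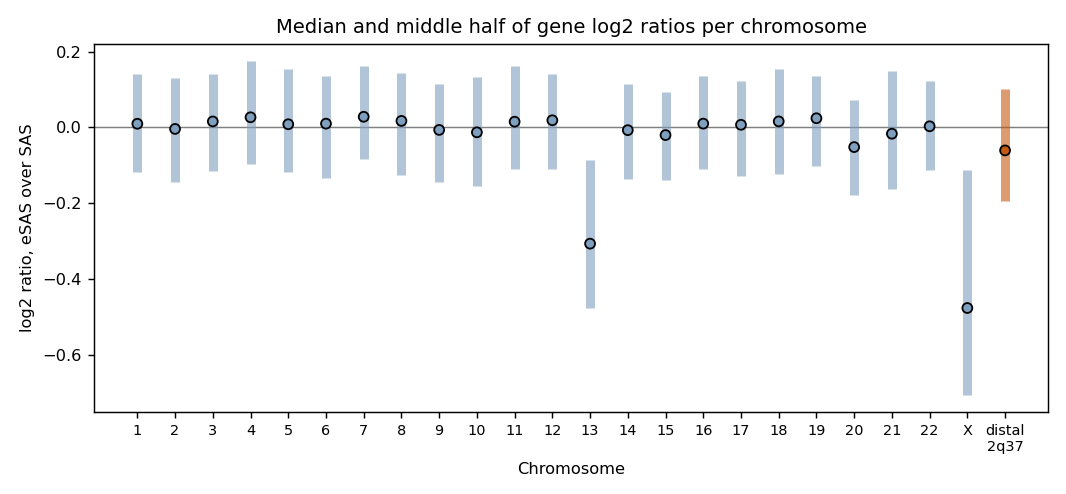
Median (circles) and interquartile range (thick bars) of the log2 ratio of eSAS over SAS for the measured names of each chromosome (blue) and for the 113 measured names of distal 2q37 (orange). Distal 2q37 has a median of -0.06, while chromosomes 13 and X stand at -0.31 and -0.48.

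The region was set beside whole chromosomes on the same scale. Of 23 chromosomes, 21 had medians between -0.05 and 0.03, and chromosome 2 as a whole, in 25 bins of 10 Mb, had bin medians from -0.09 to 0.07 with 12 bins below 0. The median of distal 2q37 lay just below the lowest of those 21. Chromosomes 13 and X lay well below, at -0.31 and -0.48, with 83.4% and 82.9% of their names below 0, so broad shifts of whole chromosomes were present in this pair of arrays. The 1 Mb neighbourhoods of ESPNL and CXCR7 had medians of -0.12 and 0.01. Bins of 10 Mb ran from -0.68 to -0.06 on chromosome X and from -0.39 to -0.26 on chromosome 13. The ESPNL value lay within the range of the first and above that of the second, and these windows differ in size.

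By role, 12 groups of genes were described, with 77 genes on the array and 56 measured in both populations. Of these 56, 3 were at least 2-fold lower (ESPNL, INPP5D and ALPP), or 5.36%, where 1.37% of all 19391 measured names were. None was at least 2-fold higher, where 1.01% of all names were, and their median log2 ratio was -0.08. ESPNL is among the 3, so nothing is read from that excess. Of the 9 measured genes of actin, septin, motor and vesicle traffic, only ESPNL was past 2-fold, NGEF and FARP2, another guanine nucleotide exchange factor, had log2 ratios of -0.93 and -0.56, and TRAF3IP1, of intraflagellar transport, had -0.24. The group median was -0.14. FARP2 gave 91.6 in SAS and 59.8 in eSAS on 1 probe.

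Among kinases, phosphatases and lipid signalling genes, INPP5D was the only one of 8 past 2-fold. CAB39, a scaffold of the kinase LKB1, had -0.30 and PDE6D, a chaperone of prenylated proteins, -0.21, and the group median was -0.11. The alkaline phosphatases were the group with the lowest median, -0.81, but over 2 genes, of which ALPG rests on probes that disagree. The only measured UGT1A entry, named UGT1A6, had -0.19 over probes at -0.34 and -0.05, and as UGT1A transcripts share their last exons the isoform is uncertain.

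Genes of protein turnover stayed close to 0. Of 10 measured ubiquitin, proteasome, COP9 signalosome and autophagy genes none was past 2-fold, and their median was -0.07. FBXO36, an F-box protein, had 0.39 over 3 probes from 0.17 to 0.70, UBE2F -0.26, the proteasome subunit PSMD1 -0.14 and ASB1, a SOCS box protein, 0.10. Both probes of UBE2F lay between -0.29 and -0.23, so this gene was measured alike by both.

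The transcription, chromatin and clock genes, all 7 of which were measured, had a median of -0.07. HES6, a basic helix-loop-helix factor, had the lowest value, -0.41, from signals of 37.4 and 27.1. TWIST2, a mesenchymal transcription factor, gave 1532 in SAS and 1263 in eSAS, a log2 ratio of -0.22. HDAC4 had -0.14 over 4 probes from -0.24 to -0.03. All 4 genes of the SP100 family were measured as well, with a median of 0.06: SP110 had 0.36, SP140L -0.11, SP140 0.10 and SP100 0.01. Neither group moved as a block.

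Among RNA binding, decay and translation genes, the median over 5 was -0.08, with DIS3L2 at -0.21, the vigilin gene HDLBP at 0.10, nucleolin (NCL) at -0.09 and the cap-binding protein EIF4E2 at -0.08. The 4 measured mitochondrial and metabolic enzymes had a median of -0.06, and NDUFA10, a subunit of respiratory complex I, had the lowest value at -0.35, over probes at -0.52 and -0.17. Of the protease and apoptosis genes, BOK, a BCL2 family member, had 0.22 and the calpain CAPN10 and the aminopeptidase-like RNPEPL1 had -0.02 and 0.00. Glypican GPC1, the only measured member of its group, gave 14815 in SAS and 11857 in eSAS, a log2 ratio of -0.27. Every one of these genes lay within 1.5-fold.

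Receptors, channels and their partners were mostly too dim to compare. Of 10 on the array, only RAMP1 (21757 and 17210, log2 ratio -0.28) and PDCD1 (221.4 and 274.3, log2 ratio 0.36) were measured in both populations. HTR2B, CHRND, CHRNG and GPR35 were not well above background on either array. PDCD1 is best known from lymphocytes, and the T cell marker CD3E was not well above background on either array.

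**Figure D5:**
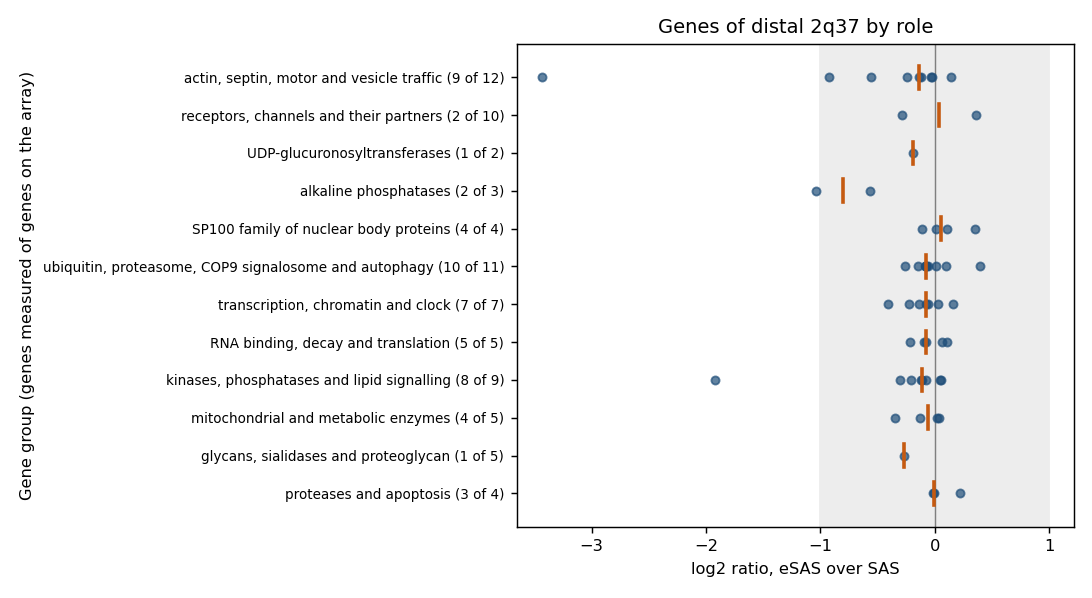
Log2 ratio of eSAS over SAS (horizontal axis) of each measured gene (circles) in 12 groups by role (vertical axis, with genes measured of genes on the array), with the group median as an orange bar and the range under 2-fold in grey. Only ESPNL, INPP5D and ALPP lie outside the grey band.

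At the proximal edge of the region, the last probes outside were PID1, which was not well above background on either array, and DNER, a Notch ligand-like protein of neurons, which gave 122.9 in SAS and 33.5 in eSAS, a log2 ratio of -1.82. The first probes inside were THC2519901, at 187.2 and 127.2 with a log2 ratio of -0.50, and the ubiquitin ligase TRIP12, at 7659 and 7553 with 0.03. The last member probes, BC018099 and ENST00000373268, gave 18.0 and 18.9, and 5487 and 5247. Of the 170 member probes named through RefSeq, 169 belong to genes of chromosome 2 there. The exception, a TPM3 probe of a gene on chromosome 1, had a log2 ratio of 0.04.

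Both arrays carried 41000 probes, with 69.4% of probe spots well above background in SAS and 67.5% in eSAS, 75th percentiles of 1242 and 1196, and no saturated spot. All 11 epithelial markers, squamous and general, were well above background on both arrays. Their summed signals were 320735 and 314983, mostly from KRT18 and KRT8, so the sums say little about the squamous markers. Of the 11, 8 had log2 ratios below 0, and 1 was at least 2-fold lower in eSAS, KRT14, at 8749 in SAS and 1286 in eSAS with a log2 ratio of -2.71. The 3 above 0 were KRT18 (0.20), KRT8 (0.16) and EPCAM (0.04), which are not particular to squamous epithelium. Of 6 mesenchymal markers 3 were well above background on each array, with summed signals of 23091 and 18249 that came almost wholly from FN1 (22764 and 18026). FN1 and VIM (278.2 and 176.9) were so on both arrays, COL1A1 (15.2 and 6.02) in SAS only and LUM (3.21 and 29.6) in eSAS only. Of 3 endothelial markers 2 were in SAS and 1 in eSAS, with sums of 110.8 and 95.1, and of 4 melanocyte markers 3 were in SAS and 2 in eSAS, with sums of 690.9 and 637.8. The part of such cells in the results above was not tested.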

How the data were processed

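Total RNA from SAS and eSAS was labelled with Cy3 and hybridised to 1 Agilent array each. The deposited intensity values are the spot signals of the scanner software, Agilent Feature Extraction 10.7.3.1 per the submitters' processing notes, with background subtracted by the authors' software. Its background and outlier marks (yes or no) were deposited beside them. The intensities of the deposited series value table equalled the processed signals in all 43376 spots of each array, within a relative 1e-06, so it adds no other normalization. The log2 signal was taken minus the log2 of each array's 75th percentile over non-control spots. Spots marked as outliers on either array were dropped, repeat spots averaged, and a probe counted if it was well above background in at least 1 population. Where it was dim in the other, its signal, raised where needed to the array's minimum among probes well above background (12.8 in SAS, 15.2 in eSAS), gave a bound. Gene values are means over probes measured on both arrays. All members are spotted once, so their technical error is that of the software's error model, and repeat spots of 211 other probes had an SD of 0.07 on the log2 scale. The number of arrays limits the precision.

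Names came from the RefSeq table by accession (143 member probes), symbol (19), older symbol (7) or another probe of the same array name (1), and 87 kept the array's name. The text names ESPNL, CXCR7, each member probe past 2-fold, its flanks, the 5 nearest names on each side of ESPNL and CXCR7, and up to 4 genes per group by size of the log2 ratio. HTR2B, CHRND, CHRNG, GPR35, KLHL30, ALPI and NEU4 were named as examples of dim genes, and A_32_P98574 and KRT14 for their ratios, after their values were seen. The members, gene groups and alternatives were chosen with earlier results of these data known. The alternatives covered scaling, background correction, filters and array area. Python 3.11.15, pandas 2.3.3, numpy 2.4.6 and, for normexp, limma 3.58.1 under R 4.3.3 were used, and the counting was tested on simulated data. A leukocyte marker of the list is not reported here.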

Additional observations from a re-analysis of the deposited data

How the results depend on the processing

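No paired analysis was possible because SAS and eSAS were each hybridised once. Of 79 values behind the comparisons recomputed under 15 alternatives, 55 stayed close to the reported ones. Some alternatives could not change the ratio of a member probe well above background on both arrays. These were keeping marked spots, leaving out rows 450 to 510 and changing the filter. The series value table repeats the unscaled signals, so counts of alternatives overstate the independent checks. ESPNL was at least 2-fold lower under 11 of 12 alternatives. It gave -2.32 without background correction on mean pixels, -2.32 on median pixels, and -2.15 with normexp fitted without spots of marked local background. With normexp on all spots it reversed to 0.54, and 1 ALPG probe to 2.32, while the median of all genes moved to 0.67. That fit includes 26 eSAS spots with a marked local background of up to 102066. Under it the medians were 0.67 for members, 0.65 around ESPNL and 1.99 around CXCR7. Then 2 member probes (1.13%) were lower, where 0.64% of all probes were, and 70 (39.5%) higher, where 39.6% were.

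CXCR7, INPP5D and ALPP stayed at least 2-fold lower under all 12 alternatives, including those that could not change them. The ALPG probe stayed at least 2-fold lower under 8 of 12 and A_24_P315885 under 7 of 11. AA203154 and THC2632923 stayed at least 2-fold higher under 9 of 12 and 9 of 11. Both counts include normexp on all spots, where 39.6% of all probes were higher, so that setting says nothing of these probes. Without background correction, on median pixels and with the restricted normexp, the ALPG probe gave -0.48, -0.45 and -0.47. AA203154 gave 0.68, 0.67 and 0.59 there, so both calls depend on the background correction. Member probes lower numbered 3 without background correction, 3 on median pixels, 3 with the restricted normexp, 9 at 1.5-fold and 11 with no filter. The first 3 of these are 1.69% of member probes, against 0.57%, 0.56% and 0.57% of all probes. With no filter the share was 4.28% against 3.76%, and with both arrays well above background it was 2.38% against 1.26%. Those higher numbered 0, 1 and 0 under the first 3, where 0.44%, 0.58% and 0.30% of all probes were higher. They numbered 7 (2.72% against 3.37%) with no filter and 1 (0.60% against 0.94%) when both arrays had to be well above background. With no filter the medians were 0.025 for members, -0.025 around ESPNL and 0.17 around CXCR7, against 0.05 for all genes. The CXCR7 median was -0.069 with the restricted normexp and -0.073 with a 2 Mb window. Signal over background limits the comparison to 177 of 257 member probes, and 80 cannot be compared.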

Other observations

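Chromosomes X and 13 stood apart from distal 2q37 and from the rest of the genome. The 632 measured names of chromosome X had a median log2 ratio, eSAS over SAS, of -0.48, and all 16 bins of 10 Mb with at least 10 names were below 0, from -0.68 to -0.06. The 344 measured names of chromosome 13 had a median of -0.31, and all 9 bins lay between -0.39 and -0.26. Over 12 alternatives, the lowest medians were -0.53 for chromosome X and -0.36 for chromosome 13, both without scaling, and the highest were 0.42 and 0.42, both with normexp on all spots, where the median of all genes was 0.67. These medians come from 1 array per population and were looked at after the data had been seen, as were their alternatives.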
